A study of Mus musculus with 10 samples.

Results

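The genes described here encode the brakes of the cell cycle in lenses of E13.5 mouse embryos with and without Dicer, the ribonuclease that cuts microRNA precursors. They are 10 genes chosen by symbol: the Cip/Kip inhibitors of cyclin-dependent kinases (Cdkn1a, Cdkn1b and Cdkn1c), the Ink4 inhibitors (Cdkn2a, Cdkn2b, Cdkn2c and Cdkn2d) and the pocket proteins (Rb1, Rbl1 and Rbl2). Of these, 9 had a probe set annotated to them alone, out of 19938 genes measured that way, and each gene was read from its brightest probe set. The only probe set that carries the name Cdkn1a is annotated to a further gene, 4930567H12Rik, so its values are given as those of a shared probe set and are not counted among the 9.

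DicerCN embryos had the genotype Le-Cre+/-;DicerloxP/loxP, and control embryos Le-Cre-/-;DicerloxP/loxP, so both carried 2 flanked Dicer alleles and were compared at E13.5. The titles call the controls wild type. Le-Cre is driven by the P0 promoter of Pax6 and acts in the ectoderm that gives rise to lens and corneal epithelium. Since controls lacked the Cre transgene, an effect of Cre and an effect of Dicer loss cannot be told apart. Each group had 5 arrays, and each array held RNA from both lenses of a single embryo.

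Pocket proteins bind E2F transcription factors and keep the genes of DNA replication off, and cyclin-dependent kinases release this hold by phosphorylating them. Ink4 proteins bind the kinases Cdk4 and Cdk6 and block their union with D-type cyclins, while Cip/Kip proteins bind whole complexes of cyclin and kinase, above all those of Cdk2. In the lens, epithelial cells at the equator leave the cycle as they become fibres. Mouse lenses without Rb1 fail to leave it, and Cdkn1b and Cdkn1c act together in that exit in the mouse.

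Several of these genes are reported targets of microRNAs, and the mature sequences below are shown because Dicer makes them. Rbl2 is a reported target of the miR-17 family in mouse cells and of the miR-290 cluster in mouse embryonic stem cells, CDKN1A is one of the miR-17 family in human cells, and CDKN1B and CDKN1C are reported targets of miR-221 and miR-222 in human cells. The sequences are from RefSeq on GRCm38.p6, with the seed, bases 2 to 8, in capitals.
mmu-miR-17-5p: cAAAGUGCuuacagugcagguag
mmu-miR-20a-5p: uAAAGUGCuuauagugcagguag
mmu-miR-93-5p: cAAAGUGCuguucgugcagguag
mmu-miR-106b-5p: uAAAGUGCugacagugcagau
mmu-miR-291a-3p: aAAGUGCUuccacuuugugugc
mmu-miR-294-3p: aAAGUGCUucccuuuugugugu
mmu-miR-221-3p: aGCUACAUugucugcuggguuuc
mmu-miR-222-3p: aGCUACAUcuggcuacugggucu
The 4 members of the miR-17 family share the seed AAAGUGC, and miR-221 and miR-222 share GCUACAU. The pair from the miR-290 cluster share AAGUGCU, which has the letters AAGUGC in common with the miR-17 seed, moved by 1 base. Neither the levels of these microRNAs nor target sites in transcripts were measured or searched here.

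Median log2 signals of the 10 arrays ran from 6.54 to 6.56, and correlations between arrays from 0.977 to 0.99. Dicer1 had signals of 10.19 to 10.45 in DicerCN and 10.01 to 10.32 in control lenses, and since the flanked exons are not named in the labels, this does not check the genotypes. Lens identity was plain: the 11 measured markers of lens fibres averaged 11.28 to 12.001 in DicerCN and 12.04 to 12.40 in control lenses. Marker signals of neighbouring tissues were unequal between arrays. The mean of 10 striated muscle markers was 9.78 in control replicate 4 and at most 6.54 on every other array. The mean of 8 neural retina markers was 10.09 and 9.22 in DicerCN replicates 5 and 4, and 7.62 to 8.52 on the other arrays. The mean of 8 pigment epithelium markers was 6.86, 7.43 and 6.98 in DicerCN replicates 1, 4 and 5, 5.91 and 6.09 in DicerCN replicates 2 and 3, and at most 6.19 in control lenses, with 7 of the 8 positive and none called. In such bulk samples, fewer cells of a type and less RNA per cell cannot be told apart. Nor can RNA of neighbouring tissue be told apart from expression of these markers in lens cells.

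Among the 9 genes, 1 rose and 1 fell in DicerCN lenses. Rbl2, the gene of the pocket protein that marks resting and differentiating cells, was 1.42-fold higher, and Cdkn1c, the maternally expressed imprinted inhibitor of the Cip/Kip family, was 1.37-fold lower. Over all genes tested 6.54% differed, 2.56% with a rise and 3.97% with a fall, at a limma adjusted p under 0.05. The median change of the 9 genes was -0.057, and that of all genes -0.0014. Each call lies close to the threshold, as given with the values of each gene.

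**Figure D1:**
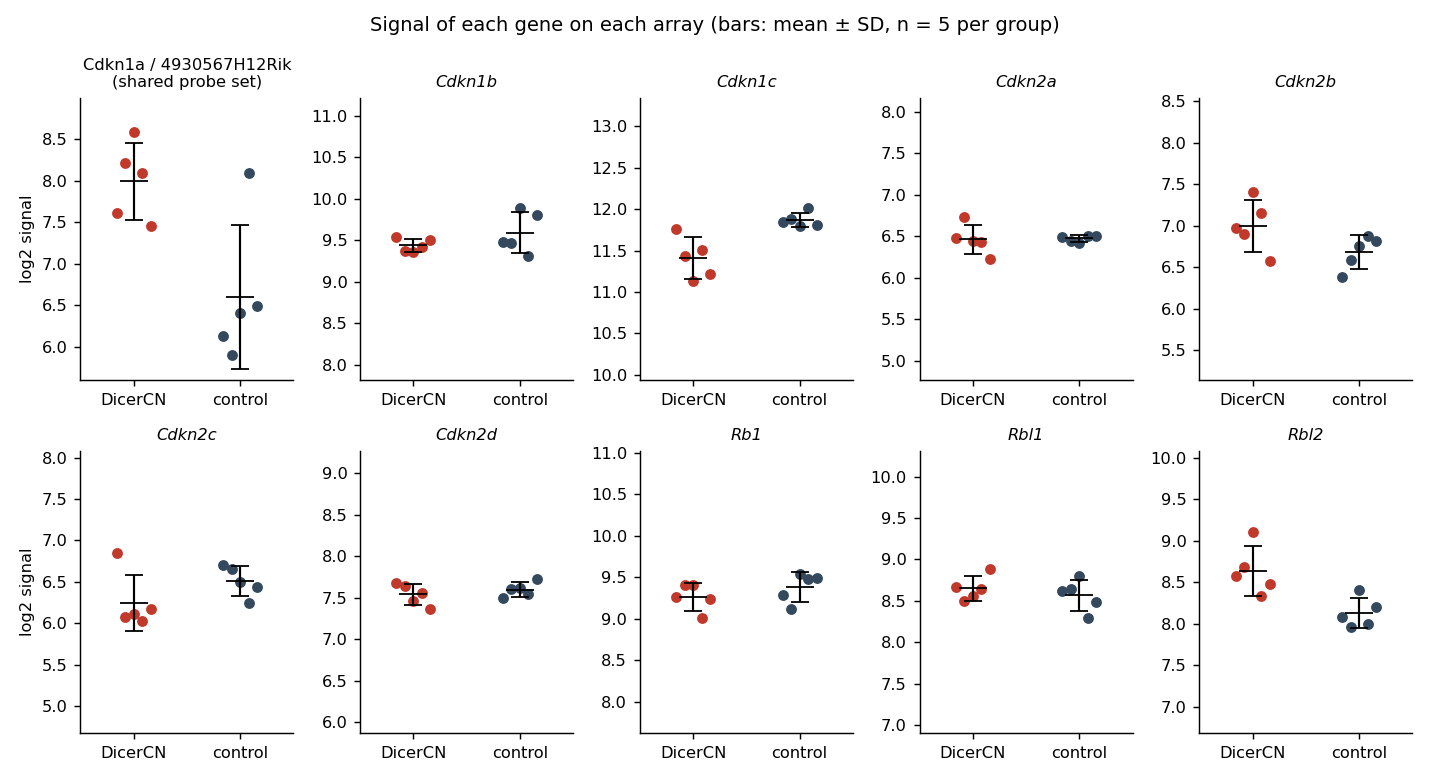
Log2 signal of each gene on each array, with DicerCN arrays left (red) and control arrays right (dark blue). Every panel spans the same range of the log2 scale, and bars show the mean ± SD of 5 arrays. Cdkn1c arrays of the groups do not overlap, Rbl2 arrays overlap by 1 pair, and control replicate 4 stands at 8.10 in the shared probe set.

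Rbl2 was the pocket protein gene that rose. Its log2 signals were 8.58, 8.69, 9.11, 8.33 and 8.47 in DicerCN replicates 1 to 5, against 8.08, 7.96, 8.41, 8.0 and 8.20 in control replicates 1 to 5. Replicate 3 was the highest array of each group, and only DicerCN replicate 4 lay below a control array. The mean was 8.64 ± 0.30 in DicerCN and 8.13 ± 0.18 in control lenses (SD, n = 5 each), a rise of 0.50 (SE 0.14, 95% confidence interval 0.21 to 0.80, limma adjusted p = 0.0462). The call was lost on leaving out any 1 of 8 arrays, all but DicerCN replicate 4 and control replicate 3, at adjusted p of up to 0.116, while the change stayed between 0.39 and 0.58 over all 10 omissions. It was also lost when every probe set was tested (adjusted p = 0.0884) and without control replicate 4 and DicerCN replicate 5 together (0.51, adjusted p = 0.0836).

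The macrophage marker mean was higher in DicerCN lenses, where Rbl2 rose. The mean of all 12 was 7.36, 6.65, 7.50, 7.15 and 6.74 in DicerCN replicates 1 to 5, against 6.32, 6.52, 6.56, 6.84 and 6.16 in control replicates 1 to 5, and 2 of the 12 passed the test as higher. DicerCN replicate 3 was highest in both Rbl2 and these markers, while DicerCN replicate 2 was the second highest array in Rbl2 and the lowest DicerCN array in the markers. DicerCN replicate 3 was also the highest array in the means of 8 vessel (9.25), 7 periocular mesenchyme (8.31) and 6 erythroid markers (9.49). All of these markers had positive changes and none passed the test, and the means overlapped between groups. The part of these marker lists in the Rbl2 result was not tested.

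Rb1, the founding member of the family and the pocket protein required for cell cycle exit of lens fibres, did not pass the test. Its signals were 9.26, 9.41, 9.41, 9.01 and 9.24 in DicerCN replicates 1 to 5, against 9.28, 9.12, 9.54, 9.49 and 9.49 in control replicates 1 to 5. The groups overlapped over most of their range, with a change of -0.12 (SE 0.10, 95% confidence interval -0.35 to 0.11, adjusted p = 0.618). Rbl1, the pocket protein gene that cycling cells express and that E2F itself controls, ran from 8.50 to 8.89 in DicerCN and from 8.30 to 8.80 in control lenses. Its change was 0.08 (SE 0.10, 95% confidence interval -0.14 to 0.31, adjusted p = 0.756).

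Whether the family members changed unequally was tested on the difference between a pair of paralogs within each array. Rbl2 minus Rb1 was -0.69, -0.72, -0.29, -0.67 and -0.76 in DicerCN replicates 1 to 5, against -1.20, -1.16, -1.13, -1.49 and -1.29 in control replicates 1 to 5. All DicerCN arrays lay above all control arrays. The means were -0.63 ± 0.19 in DicerCN and -1.25 ± 0.14 in control lenses (SD, n = 5 each), a difference of 0.63. Its 2-sided exact permutation p was 0.00794, the smallest that 10 arrays allow, and 0.0794 after Benjamini-Hochberg adjustment over the 10 pairs of paralogs tested. A single pair cannot pass that adjustment in this design. Rbl2 minus Rbl1 differed by 0.42 (exact p = 0.0714, adjusted p = 0.190) and Rbl1 minus Rb1 by 0.20 (exact p = 0.270, adjusted p = 0.30).

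**Figure D2:**
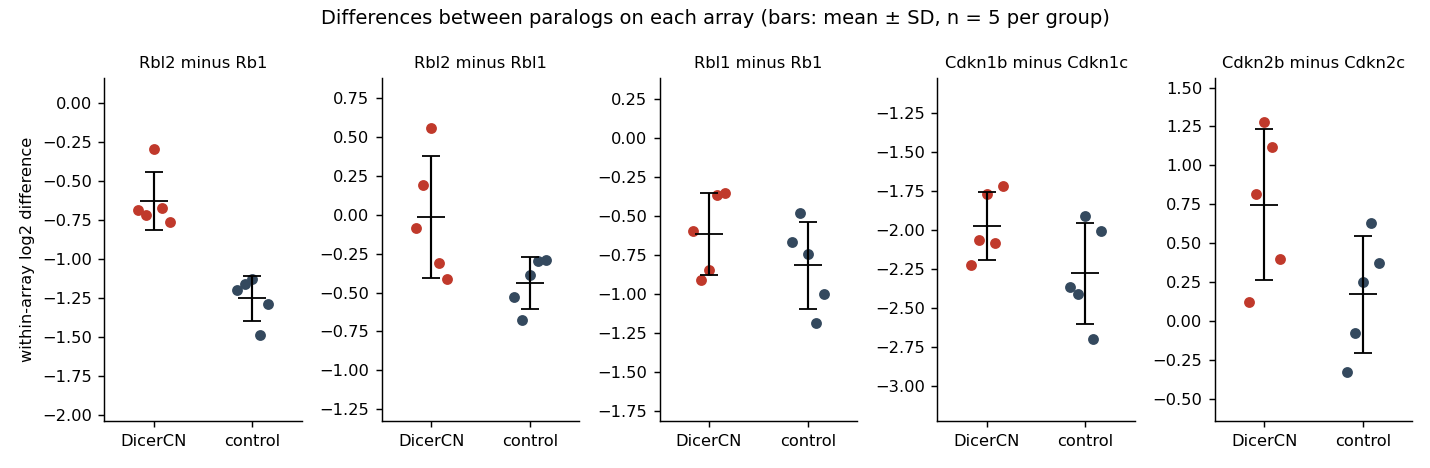
Log2 difference between paralogs within each array, DicerCN arrays left (red) and control arrays right (dark blue), with mean ± SD of 5 arrays. Rbl2 minus Rb1 has no overlap between groups, from -0.76 to -0.29 in DicerCN and from -1.49 to -1.13 in control lenses, and the other pairs overlap.

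Promoters of the pair Rbl1 and Rbl2 are shown because pocket proteins act through E2F and these paralogs differ in its letters. The 4 motifs TTTCCCGC, TTTGGCGC, TTTCGCGC and TTTGCCGC were searched on both strands in the 250 bases before each RefSeq gene start (GRCm38.p6), and 1.86% of 32851 such windows held at least 1. Of 11 windows that belong to 8 of the 10 genes, 2 held 1 each, 1 of them before Cdkn2a. No window was available for Cdkn1c or Rb1, so these were not searched. The match before Rbl1 (chr2:157204535-157204784, minus strand) begins 18 bases before the gene start and is in capitals, and the window before Rbl2 (chr8:91069807-91070056, plus strand) holds none of these letters.
Rbl1: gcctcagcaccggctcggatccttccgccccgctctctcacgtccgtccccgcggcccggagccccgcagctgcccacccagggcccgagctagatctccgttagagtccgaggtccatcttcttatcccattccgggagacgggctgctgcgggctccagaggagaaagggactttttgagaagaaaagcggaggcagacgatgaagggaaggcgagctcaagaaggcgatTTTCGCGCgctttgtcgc
Rbl2: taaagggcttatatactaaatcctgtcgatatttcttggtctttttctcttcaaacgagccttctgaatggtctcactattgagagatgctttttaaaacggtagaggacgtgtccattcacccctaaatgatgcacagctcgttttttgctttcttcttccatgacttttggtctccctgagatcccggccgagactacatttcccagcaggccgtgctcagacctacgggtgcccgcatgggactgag
A match describes letters and shows no binding.

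Cdkn1c was the inhibitor gene that fell. Its log2 signals were 11.77, 11.44, 11.13, 11.50 and 11.22 in DicerCN replicates 1 to 5, against 11.85, 11.88, 11.80, 12.01 and 11.81 in control replicates 1 to 5. Every DicerCN array lay below every control array, a separation found in 7.38% of all genes in either direction and in none of the other 8 genes. DicerCN replicate 1 lay just below the lowest control array, and the other DicerCN arrays were spread further down. The mean was 11.41 ± 0.25 in DicerCN and 11.87 ± 0.09 in control lenses (SD, n = 5 each), a change of -0.46 (SE 0.11, 95% confidence interval -0.70 to -0.22, limma adjusted p = 0.0286). Leaving out DicerCN replicate 1 took the adjusted p to 0.00605, and leaving out any 1 of 8 arrays, all but DicerCN replicates 1 and 4, ended the call at adjusted p of 0.0504 to 0.0652, with the change at -0.47 to -0.39. The call also ended after quantile normalization (-0.35, adjusted p = 0.0788), when every probe set was tested (adjusted p = 0.0579), and without control replicate 4 and DicerCN replicate 5 together (-0.37, adjusted p = 0.107).

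The fibre marker mean was lower in DicerCN lenses, where Cdkn1c fell. The mean of the 11 measured was 12.001, 11.61, 11.996, 11.66 and 11.28 in DicerCN replicates 1 to 5, against 12.28, 12.40, 12.28, 12.22 and 12.04 in control replicates 1 to 5, with 2 of the 11 called lower and none higher. All 11 had negative changes, up to -0.056, while 49.7% of all genes had positive ones. The median change of the 11 was -0.12, and the lowest, -3.36, was also the lowest of all genes, so 1 marker weighed heavily in the mean. Of 6 lens epithelium markers, 2 were called lower and 3 had positive changes (median 0.065). DicerCN replicate 5 had the lowest fibre mean and the second lowest Cdkn1c signal, while DicerCN replicate 3, the lowest in Cdkn1c, had the second highest fibre mean of its group. Muscle markers averaged 9.78 in control replicate 4, the highest array in Cdkn1c, and without that array the change was -0.42 (adjusted p = 0.0581). The part of these marker lists in the Cdkn1c result was not tested.

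Cdkn1b, which restrains Cdk2 as cells stop dividing, did not pass the test on either of its 2 probe sets. The brighter one ran from 9.36 to 9.54 in DicerCN and from 9.31 to 9.89 in control lenses, a change of -0.15 (SE 0.11, 95% confidence interval -0.39 to 0.09, adjusted p = 0.529). The second ran from 7.77 to 8.52 in DicerCN and from 7.99 to 8.75 in control lenses, with a change of -0.29 (SE 0.17, adjusted p = 0.472 in a fit over every probe set). That Cdkn1c changed and Cdkn1b did not is not shown by these calls: Cdkn1b minus Cdkn1c differed by 0.31 between groups (exact permutation p = 0.127, adjusted p = 0.212 over 10 pairs).

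The probe set shared by Cdkn1a and 4930567H12Rik had the widest difference between groups among the probe sets of these genes. Cdkn1a is the classical p53 target that halts damaged and differentiating cells. The shared probe set gave 7.61, 8.22, 8.59, 8.10 and 7.45 in DicerCN replicates 1 to 5, against 6.12, 5.89, 6.41, 8.10 and 6.49 in control replicates 1 to 5. All 5 DicerCN arrays lay above 4 of the control arrays, and control replicate 4 lay among the DicerCN arrays. With all arrays the difference was 1.39 (SE 0.38, 95% confidence interval 0.56 to 2.22) and did not pass the test over 35557 probe sets (limma adjusted p = 0.0766), in which 3.37% of probe sets differed. Without control replicate 4 it was 1.76 and passed (adjusted p = 0.00474), in a fit that called 2.83% of probe sets. No other single array, when left out, brought it under the threshold (adjusted p = 0.0851 to 0.181).

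Control replicate 4 is the array with the high striated muscle marker mean. It held the highest signal of 9 of the 10 muscle markers, among them Myod1 (9.75, and 6.33 to 6.69 on the other arrays) and Myog (8.57, and 5.79 to 6.25), the factors that commit cells to the muscle fate. Ckm was the exception. Control replicate 4 was also the highest control in periocular mesenchyme (8.11, others 6.95 to 7.32) and macrophage markers (6.84, others 6.16 to 6.56). DicerCN replicate 3, highest in the shared probe set (8.59), was the highest array in both means (8.31 and 7.50). DicerCN replicate 2, second in the shared probe set (8.22), had the lowest macrophage mean of its group (6.65). Cdkn1a is known to be induced as mouse muscle cells differentiate. The part of muscle RNA, or of these other marker lists, in the shared probe set was not tested beyond leaving out control replicate 4. Since the probe set is annotated to both genes, its signal cannot be assigned to Cdkn1a.

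None of the 4 Ink4 genes passed the test. Mean signals of Cdkn2c, Cdkn2a and Cdkn2b were modest, above those of 42.4%, 43.9% and 49.9% of genes, and that of Cdkn2d was above 61.3%. Cdkn2b, induced by TGF-beta in many epithelia, gave 6.97, 6.89, 7.40, 7.15 and 6.57 in DicerCN replicates 1 to 5, against 6.38, 6.58, 6.75, 6.88 and 6.81 in control replicates 1 to 5. Of the DicerCN arrays 4 lay above all controls and replicate 5 below 4 of them, with a change of 0.31 (SE 0.14, 95% confidence interval 0.0028 to 0.63, limma adjusted p = 0.263). Cdkn2c gave 6.85, 6.08, 6.12, 6.03 and 6.17 in DicerCN replicates 1 to 5, against 6.71, 6.66, 6.50, 6.25 and 6.44 in control replicates 1 to 5. DicerCN replicate 1 was the highest of all arrays, and the other DicerCN arrays lay below every control. The change in Cdkn2c was -0.26 with all arrays (SE 0.15, 95% confidence interval -0.59 to 0.062, adjusted p = 0.396). Without DicerCN replicate 1 it was -0.41 and passed the test (adjusted p = 0.0282), and no other single omission did this (adjusted p from 0.280 to 0.611).

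Cdkn2a, whose transcripts encode an Ink4 protein and, in another frame, the p53 activator Arf, did not pass either. Its signals ran from 6.22 to 6.73 in DicerCN and from 6.42 to 6.50 in control lenses (change -0.012, SE 0.088, 95% confidence interval -0.20 to 0.18, adjusted p = 0.969), and the files do not say which product the probe set reads. Its sign turned without DicerCN replicate 5, to 0.048. Cdkn2d ran from 7.37 to 7.68 in DicerCN and from 7.50 to 7.73 in control lenses (change -0.057, SE 0.0805, 95% confidence interval -0.23 to 0.12, adjusted p = 0.787). Among the 6 Ink4 pairs, the smallest exact permutation p was that of Cdkn2b minus Cdkn2d (difference 0.37, exact p = 0.0397), with an adjusted p of 0.190. That pair and the other 9 did not pass.

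**Figure D3:**
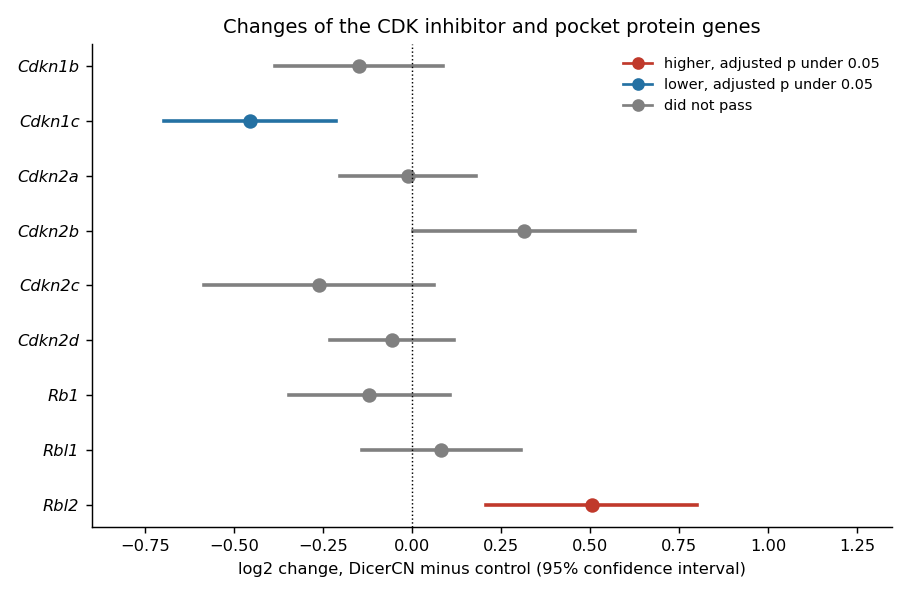
Log2 change, DicerCN minus control, for the 9 genes with a probe set of their own, with 95% confidence intervals from the limma fit. Rbl2 (0.50) and Cdkn1c (-0.46) passed the test, and the lower end of the interval of Cdkn2b is at 0.0028 without passing after adjustment over all genes.

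**Figure D4:**
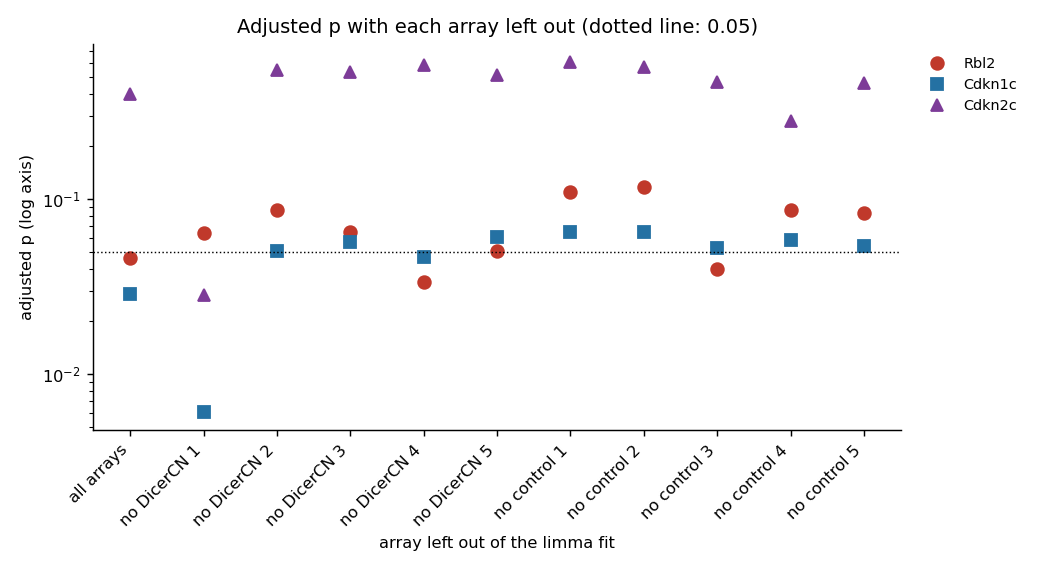
Limma adjusted p, on a log axis, of Rbl2, Cdkn1c and Cdkn2c with all arrays and with each array left out. Rbl2 and Cdkn1c each stayed under 0.05 in 2 of 10 omissions, and Cdkn2c fell under it when DicerCN replicate 1 was left out, at 0.0282.

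Genes around these brakes were read from lists chosen by function, and of their 111 genes all but 5 had a probe set of their own. In all, 5 rose and 3 fell, with a median change of 0.057 over those measured. These calls make up 7.55% of the measured pathway genes, near the 6.54% of all genes, and the lists are described gene by gene. Among 12 cyclins, kinases and activators of G1, 1 rose and 0 fell: Ccnd1, the D-type cyclin that Ink4 proteins act against, rose by 0.84 (SE 0.12, adjusted p = 0.00136). Its signals were 11.53 to 12.08 in DicerCN and 10.58 to 11.05 in control lenses, with no overlap. DicerCN replicate 5, the array highest in retina markers (10.09), was also highest in Ccnd1 (12.08) and in Foxm1 (9.34), a mitotic activator. DicerCN replicate 1, with the lowest retina mean of its group (7.64), had a Ccnd1 signal of 11.53. Control replicate 2, with the highest retina mean of the controls (8.52), had a Ccnd1 signal of 11.05, the highest control. All 8 retina markers had positive changes (median 0.78) and none passed the test. Ccnd1 kept its call with any 1 array left out, DicerCN replicate 5 included (limma adjusted p up to 0.0058). That omission keeps DicerCN replicate 4, the array second in retina markers (9.22), in the fit. The part of retina RNA in the changes of these genes was not tested. Among 10 E2F and DP factors, 1 rose and 0 fell: E2f2, an activating E2F held by Rb1, rose by 0.46 (SE 0.10, adjusted p = 0.0163), at 7.30 to 7.75 in DicerCN and 6.92 to 7.22 in control lenses. Of 24 measured E2F target genes of DNA replication, 0 rose and 0 fell, with a median change of 0.080. Of the 24, 18 had positive changes (75.0%, against 49.7% of all genes), a tally without a test. The smallest p among them were those of Gmnn (0.23, adjusted p = 0.153) and Cdt1 (0.22, adjusted p = 0.159), which restrain and license replication. Of 8 genes of the MuvB complex and its partners, through which Rbl1 and Rbl2 repress cell cycle genes, 0 rose and 0 fell. Lin9, a core subunit, stood at 0.24 (adjusted p = 0.129) and Foxm1 at 0.22 (adjusted p = 0.472).

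Of 11 genes for the turnover of Cip/Kip proteins, 0 rose and 2 fell. Rnf123, a ubiquitin ligase subunit that marks the Cdkn1b protein in G1, fell by 0.42 (SE 0.08, adjusted p = 0.00673), with 9.07 to 9.33 in DicerCN and 9.52 to 9.73 in control lenses. Rbx1, the RING subunit of cullin ligases, fell by 0.45 (SE 0.12, adjusted p = 0.0439) on the brighter of its 2 probe sets, the only one given here. Of 13 measured Polycomb genes, whose products silence the Ink4 locus, 1 rose and 0 fell: Ezh1, a histone methyltransferase, rose by 0.57 (SE 0.10, adjusted p = 0.00494), at 8.30 to 8.70 in DicerCN and 7.73 to 8.14 in control lenses.

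Of 20 measured transcription factors reported upstream of Cip/Kip genes, 1 rose and 1 fell. Myc, a repressor of Cdkn1a and Cdkn2b in other cells, fell by 1.01 (SE 0.13, adjusted p = 0.000806), with 7.06 to 7.76 in DicerCN and 8.32 to 8.71 in control lenses. Foxo3, a forkhead factor that activates Cdkn1b and Rbl2 in other cells, rose by 0.31 (SE 0.08, adjusted p = 0.0300). Of 8 measured genes in the imprinted domains around Cdkn1c, 1 rose and 0 fell: Igf2, the growth factor of the neighbouring domain, rose by 0.45 (SE 0.10, adjusted p = 0.0178). The calls of Ccnd1, E2f2, Rnf123, Ezh1 and Myc held with each of the 10 arrays left out. Igf2 lost its call without control replicate 1 (adjusted p = 0.0561). Rbx1 kept its call in only 3 of the 10 (adjusted p up to 0.112), as did Foxo3 (up to 0.0839).

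**Figure D5:**
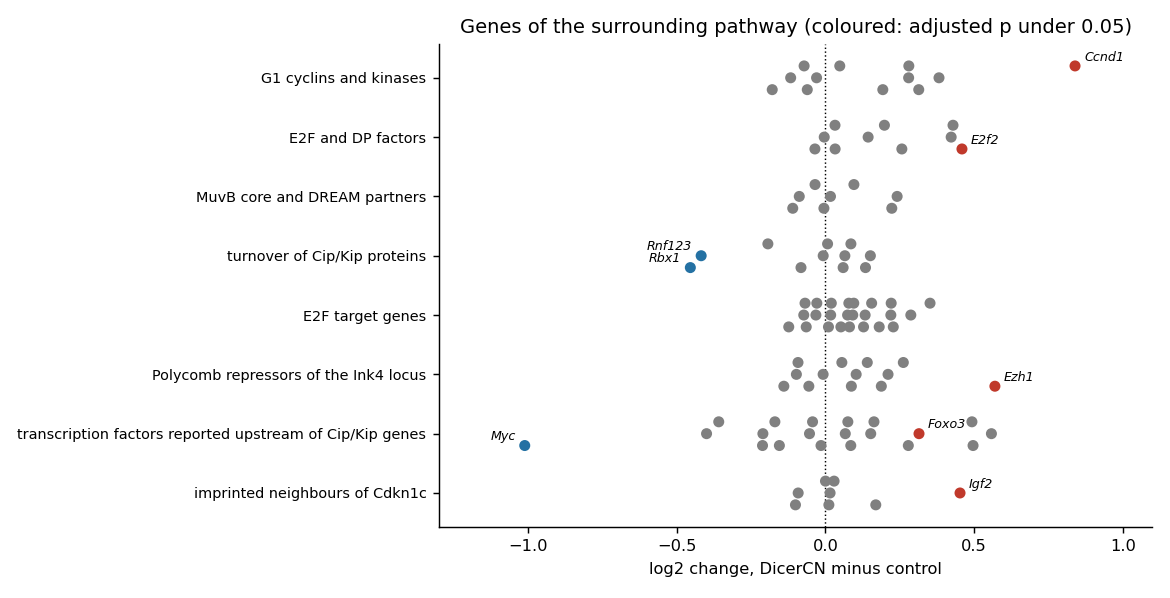
Log2 change, DicerCN minus control, of the measured genes of 8 functional lists, 1 point per gene, with points set apart vertically for legibility. Genes that passed the test are named, with rises in red (Ccnd1 highest, 0.84) and falls in blue (Myc lowest, -1.01).

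The genes whose array-to-array pattern was most like that of a called member were found by Pearson r of the deviations from the group means over the 10 arrays, out of 18614 named genes. For Rbl2 these were Tomm6 (r = 0.985), a subunit of the mitochondrial import pore, Wnk1 (r = 0.984), a kinase of ion transport, and Zbtb20 (r = 0.979), a zinc finger repressor. For Cdkn1c they were Rap2c (r = 0.978), a small GTPase, Rbbp7 (r = 0.977), a histone-binding protein, and Fbxl5 (r = 0.976), an iron-sensing ligase subunit. Of these, Zbtb20 (change 0.61, adjusted p = 0.0320) and Rap2c (change 0.76, adjusted p = 0.0193) rose in DicerCN lenses, and the others did not pass the test. Such an r rests on 10 arrays that share dissection and hybridisation differences, and is a description.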

How the data were processed

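RNA from the lens pair of each embryo was labelled by the Affymetrix whole-transcript assay and put on 1 array, per the protocols in the labels. GCOS is the tool that the submitters' processing notes list. The deposited values are log2 signals, the base being read from their range (1.91 to 15.2); the authors had scaled the arrays to one another, by a method not given in the sources used here, so a change in total RNA cannot be seen. The number of arrays limits the precision (median SE 0.0986).

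Of 35557 probe sets, the platform annotation gave 1 symbol to 21789, several to 1621 and none to 12147; of each of the 999 genes with several probe sets, the brightest was used. Groups were compared with limma 3.58.1 (R 4.3.3, lmFit and eBayes, 2-sided), with Benjamini-Hochberg adjustment over all 19938 genes. The code was tested on simulated data. Within-array differences of paralogs were compared by exact permutation over 252 regroupings; 12 pairs were planned, and the 2 with Cdkn1a were left out because its probe set is shared. The members, lists and tests were chosen with earlier results of these data known. Named are the members, pathway genes that passed (where none did, the 2 of smallest p), the 3 genes most like each called member, and Dicer1; other genes named (Myod1, Myog and Ckm) were chosen after their values were seen. Alternatives were another choice of probe sets, filter, normalization, weights, variance model and arrays.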

Additional observations from a re-analysis of the deposited data

Results flagged for a closer look

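Of 20 groups of 5 arrays looked at (the 9 genes and the shared probe set, in each genotype), 2 held an array far from its group by Dixon's criterion, which chance alone meets in about 1 of 20 groups. Cdkn2c stood at 6.85 in DicerCN replicate 1, against 6.03 to 6.17 on the other DicerCN arrays. The probe set shared by Cdkn1a and 4930567H12Rik stood at 8.10 in control replicate 4, against 5.89 to 6.49 on the other control arrays. The calls with and without these arrays are given with the genes.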

How the results depend on the processing

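The number of called members moved most. It was 2 with all arrays, 0 to 2 with each array left out (the 2 without DicerCN replicate 1 being Cdkn1c and Cdkn2c), 1 (Rbl2) after quantile normalization, 0 without control replicate 4 and DicerCN replicate 5 together, and 0 when each of the 35557 probe sets was tested. Counted by arrays that do not overlap it was 1 (Cdkn1c). It was 2 under the mean of probe sets, without the lowest 30% of signals, with array weights, with a variance trend, and with the replicate number as a block (replicate block, 2 members called, with adjusted p = 0.0188 for Rbl2 and 0.0330 for Cdkn1c); that block moved no count by over 1.5 times. Little pairing by number was seen: deviations of same-numbered arrays correlated at -0.088 to 0.19, 1 of 5 over 0.1, and 1 of 5 DicerCN arrays correlated best with its own number. Such correlations, which unequal marker signals of neighbouring tissues may also shape, cannot settle whether the numbers pair the arrays. Rbl2 and Cdkn1c kept their direction in all 18 alternatives. Over all genes the calls numbered 784 (without control replicate 1) to 1295 with an array left out, and 865 without control replicate 2. The pathway calls numbered 8 with all arrays, 5 (without control replicate 1) to 9 with an array left out, 10 after quantile normalization, 11 without the lowest 30% of signals and 12 with array weights. The number of paralog pairs that passed was 0 throughout, which says nothing of stability, since a single pair at the smallest exact p (0.00794 with 10 or 9 arrays) cannot pass the adjustment over 10 pairs; with the replicate number as a block it was not run, because 32 sign flips cannot give a p below 0.0625. The change of Cdkn2a ran from -0.078 to 0.048 with an array left out and was 0.056 without both arrays named above, where that of Rbl1 was -0.045. Alternatives for the shared probe set were chosen after seeing the data: besides omissions of control replicate 4, alone or with DicerCN replicate 5 (1.9, adjusted p = 0.00509), it did not pass in any (adjusted p = 0.0557 to 0.181).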
